A study of Mus musculus with 33 samples.

Results

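Albiflorin and paeoniflorin are isomeric monoterpene glycosides of peony root, and this comparison covers the 18 arrays that measured them of 33 in all, 9 for albiflorin and 9 for paeoniflorin. Both carry a glucose unit and a benzoyl ester on a small terpene skeleton. Paeoniflorin closes its skeleton as a cage through a hemiketal and an acetal, and albiflorin holds a lactone in that place. The members were chosen by their sample titles alone. Each albiflorin array was set against the paeoniflorin array of the same dose and replicate number, at 1, 10 and 100 µg/ml and pooled over the 3 doses, and no array of lipopolysaccharide (LPS) alone or of vehicle entered a contrast.

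All arrays hold RNA of RAW264.7 cells, an established mouse macrophage-like line, taken after 6 h. The groups were LPS with albiflorin at 1, 10 and 100 µg/ml, LPS with paeoniflorin at the same doses, LPS with paeonol at the same doses, LPS alone and DMSO vehicle without LPS, with 3 arrays in each of 11 groups. LPS was given at 1 µg/ml, so both isomers were measured in LPS-activated cells only and neither was given without LPS. The series' design text calls the 3 arrays of a group biological replicates. Of 16 genes listed as marks of macrophage identity and 16 as marks of other cell types, 0 and 0 could be named on this array, so the cell type was not checked against its markers.

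LPS, a component of the outer membrane of Gram-negative bacteria, is sensed by Toll-like receptor 4 on macrophages. Signals through NF-kB, MAP kinases and interferon regulatory factors then switch on cytokines, interferon-inducible genes and inflammasome sensors, while many genes of the resting state are turned down. Compounds given together with LPS are often asked whether they dampen this programme. Here the question is whether the isomers left the cells in different states when dose and time were the same.

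Values are log2 of quantile-normalised intensity, so a level of one probe cannot be set against that of another. A spot counted as detected at a signal over noise of at least 3, and 19438 of 33012 gene probes were tested. A probe was called at a limma adjusted p under 0.05. Names were found for 317 probes, of which 183 were tested, and the other probes are given by number. Differences are albiflorin minus paeoniflorin unless another pair is named.

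The replicate number of an array is its scan day, for 33 of 33 arrays, so each matched pair was read on the same day. In 9 of 9 pairs the albiflorin array was scanned before the paeoniflorin array, by 1 to 4 arrays, so isomer and scan order within the day cannot be told apart by the pairs. Median signals before normalisation ran from 335.9 to 1439.7 and detection from 38.2% to 49.7% of the gene probes.

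Some isomer arrays stood apart. Paeoniflorin 10 replicate 1 had the lowest detection, 38.2%, and its nearest array lay at a root mean square log2 difference of 0.83, while the other 17 isomer arrays had a neighbour at 0.15 to 0.28. Over the 9515 probes detected on all arrays, deviations from the mean of the LPS-treated arrays were compared between each array and the arrays of each scan day. Albiflorin 1 replicate 1 was most like the replicate 2 arrays (correlation across probes 0.64, against -0.61 with its own number). Paeoniflorin 100 replicate 2 was most like the replicate 1 arrays (0.53, against -0.41 with its own number). The other 16 of 18 isomer arrays were most like their own number, and 27 of 30 over all LPS-treated arrays. Albiflorin 10 replicate 2 and albiflorin 100 replicate 2 were the dimmest arrays, with median signals of 358.5 and 335.9. These labels were kept as given. Differences that move by over 1.5 times without paeoniflorin 10 replicate 1, albiflorin 1 replicate 1 and paeoniflorin 100 replicate 2, called the 3 arrays from here on, are given with and without them, and likewise for the 2 dimmest arrays.

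Whole profiles were close. Over the same probes, matched albiflorin and paeoniflorin arrays differed by a root mean square of 0.187 to 0.883 on the log2 scale, with a median of 0.309 over 9 pairs. Arrays of the same isomer at another dose and on the same day differed by a median of 0.342 over 18 pairs, and arrays of the same isomer and dose on different days by 0.439 over 18 pairs. An isomer array differed from the paeonol array of its dose and day by a median of 0.343 and from the LPS array of its day by 0.252. LPS alone differed from vehicle by 0.79 to 0.842 over 3 pairs. The median distance between the isomers was below that between doses of one isomer and that between days, and the ranges overlapped. Without the array that lay far from all others and those that were most like another day, the 6 remaining isomer pairs spanned 0.187 to 0.433, with a median of 0.253. The nearest array of each isomer array was of the same scan day in 14 of 18 cases and of the same isomer in 8.

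**Figure D1:**
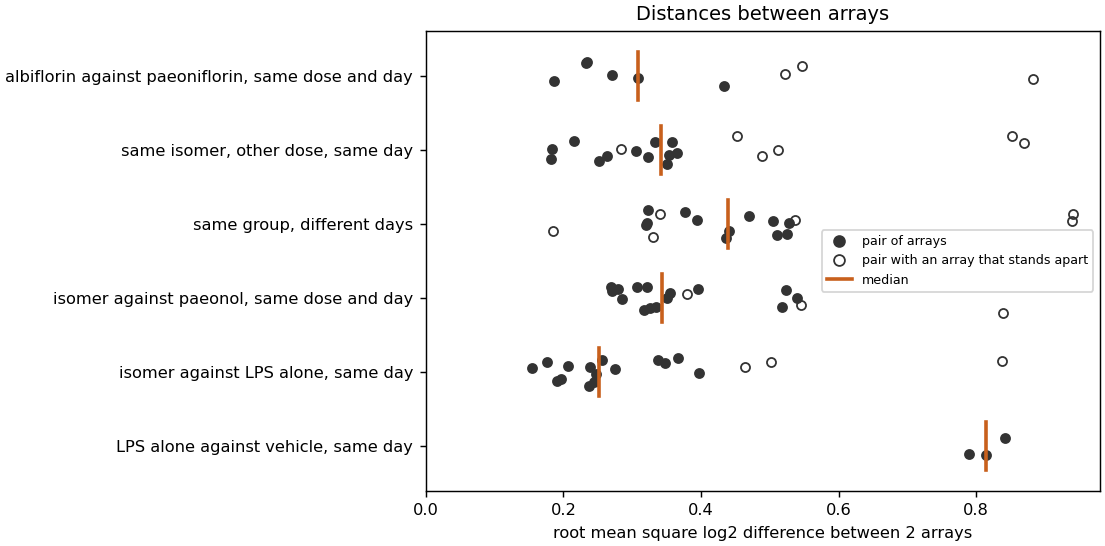
Root mean square log2 difference between 2 arrays over the 9515 probes detected on all 33 arrays, by kind of pair. Each point is a pair of arrays, open points hold paeoniflorin 10 replicate 1, albiflorin 1 replicate 1 or paeoniflorin 100 replicate 2, and bars are medians over all pairs of a kind. The isomer pairs have a median of 0.309, against 0.814 for LPS alone and vehicle.

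No probe separated the isomers past the threshold. Pooled over the doses, limma called 0 of 19438 probes (0%), and the smallest adjusted p was 0.0855. At 1, 10 and 100 µg/ml it called 0, 0 and 0 (0% each), with smallest adjusted p of 0.117, 0.199 and 0.635. With the 3 doses adjusted together these were 0.343, 0.343 and 0.571. The F test over the 3 doses and the difference of dose slopes also called 0 (0% each), with smallest adjusted p of 0.215 and 1. The same fit called 3774 probes for LPS against vehicle (19.4%), 1567 higher (8.06%) and 2207 lower (11.4%).

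At an unadjusted p under 0.05 the pooled comparison held 2177 probes (11.2%), 608 higher and 1569 lower with albiflorin, where 972 are expected by chance. Without the 3 arrays named above, a choice made after seeing the data, the refitted comparison held 822 probes below that p, 277 higher and 545 lower, under the number expected by chance. Without the 2 dimmest arrays it held 1023. The count depended on single arrays as well. It was 3426 without albiflorin 1 replicate 3, 3977 without paeoniflorin 10 replicate 3, 1136 without paeoniflorin 100 replicate 2, 1314 without albiflorin 1 replicate 1 and 1346 without albiflorin 10 replicate 2. The single doses gave 423 at 1 µg/ml (2.18%), with 1166 without albiflorin 1 replicate 3 and 723 without paeoniflorin 1 replicate 2. They gave 2225 at 10 µg/ml (11.4%) and 1354 at 100 µg/ml (6.97%). At 10 µg/ml leaving out paeoniflorin 10 replicate 1 brought the count to 708. At that dose it was 1135 without albiflorin 10 replicate 2, and 3384 and 4341 without paeoniflorin 10 replicates 2 and 3. At 100 µg/ml it was 701 without albiflorin 100 replicate 2 and 556 without paeoniflorin 100 replicate 2. The F test had 1097 probes at an unadjusted p under 0.05 (5.64%) and the slope difference 652 (3.35%). The F count was 2934 without paeoniflorin 10 replicate 3, 2011 without paeoniflorin 10 replicate 2 and 655 without paeoniflorin 100 replicate 2. The slope count was 359 without paeoniflorin 1 replicate 1 and 417 without albiflorin 100 replicate 2.

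A missed threshold does not show that the isomers act alike, so the intervals matter. The median standard error of a difference was 0.293 at a single dose and 0.169 pooled. The fit takes scan day as a constant shift and the arrays of an isomer as otherwise independent. Each scan day holds every dose, and an isomer difference that varies by day is not modelled. Pooled standard errors and p can therefore be too small, here and for the genes below. Pooled intervals can be too narrow, and the unadjusted counts and the shares within 2-fold too high. The 95% interval of the pooled difference lay within 2-fold either way for 83.5% of the probes and within 1.5-fold for 53.3%. For the 10326 probes detected on all 18 isomer arrays these shares were 97.5% and 85.6%. At the single doses 58.8%, 53.2% and 56.3% of the probes had an interval within 2-fold at 1, 10 and 100 µg/ml. Pooled differences of 2-fold or more were estimated for 0.376% of the probes, against 12.7% for LPS minus vehicle, whose median standard error was 0.293. The pooled difference averages more arrays, so these shares are not of like precision. The single doses have the same median standard error as LPS minus vehicle. There 465, 1523 and 560 of 19438 probes differed by 2-fold or more at 1, 10 and 100 µg/ml, against 2473 for LPS minus vehicle.

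**Figure D2:**
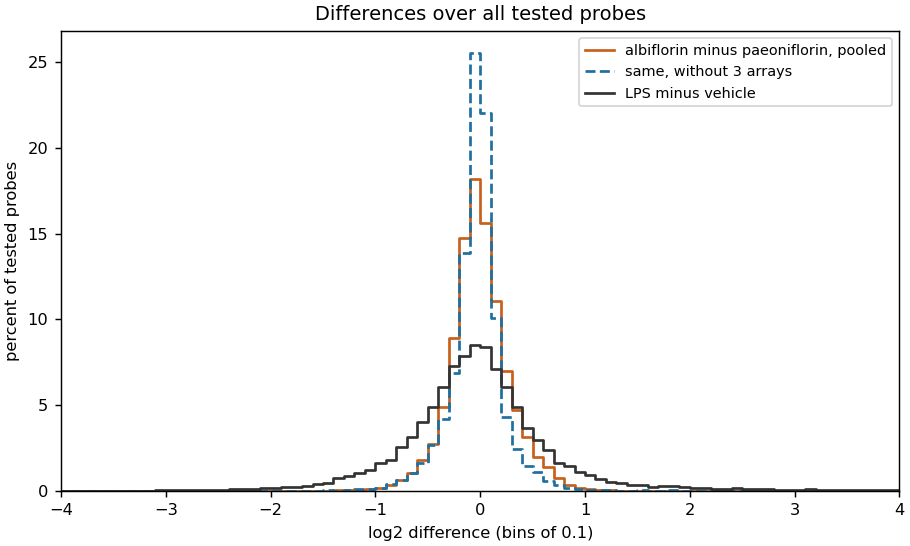
Share of the 19438 tested probes (vertical axis, percent) by log2 difference in bins of 0.1 (horizontal axis) for the isomers pooled over doses, for the same without 3 arrays (dashed) and for LPS minus vehicle. From the 5th to the 95th percentile the isomer differences ran from -0.46 to 0.49, and the LPS differences from -1.11 to 1.17. The median standard error was 0.169 for the pooled isomer difference and 0.293 for LPS minus vehicle, so the spreads are not of like precision.

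Counted array by array, 0 of 18898 probes with no missing isomer value (0%) had all 9 albiflorin arrays above all 9 paeoniflorin arrays, and 1 (0.00529%) had them all below. That unnamed probe, 337969, differed by -0.30 ± 0.113 (SE, limma adjusted p = 0.434). In 9 of 9 matched pairs albiflorin was higher at 35 probes (0.185%) and lower at 73 (0.386%). No probe (0%) was detected on at least 8 albiflorin arrays and at most 1 paeoniflorin array, and 2 (0.0103%) the other way round, probes 447342 and 633590, both unnamed.

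The interferon-inducible genes of the LPS panel, a list of 28 named genes chosen with earlier results of these data known, read near their level in LPS alone with both isomers. In bulk RNA, fewer cells and less RNA per cell cannot be told apart. Ifi202b belongs to a family of interferon-inducible DNA-binding proteins. It read 20.41, 20.21 and 19.77 at albiflorin 1, 19.60, 20.33 and 19.96 at albiflorin 10 and 19.50, 20.23 and 19.88 at albiflorin 100. With paeoniflorin it read 19.53, 20.27 and 19.84 at 1, 19.94, 19.91 and 19.85 at 10 and 19.68, 19.80 and 20.07 at 100 µg/ml. The isomers overlapped at each dose, and all 18 values lay above the vehicle values of 15.20, 15.75 and 14.97. The pooled difference was 0.11 ± 0.117 (SE, n = 9 each, 95% interval -0.13 to 0.35, limma adjusted p = 0.672), against an LPS difference from vehicle of 4.65. It was 0.02 ± 0.11 without the 3 arrays and 0.03 without the 2 dimmest.

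The pooled difference was 0.17 ± 0.132 for Csprs and 0.25 ± 0.115 for C130026I21Rik. It was 0.23 ± 0.172 for Trim34a, a tripartite motif gene, and 0.12 ± 0.0821 for H2-Q7, a class I histocompatibility gene. LPS had raised these 4 by 4.31, 2.74, 3.82 and 0.59 (limma adjusted p = 0.00383 for H2-Q7, the highest of the 4). All 5 genes of this group read higher with albiflorin, where 9000 of 19438 probes did, and 0 of 5 was called. Without the 3 arrays 4 of 5 did, with Trim34a at -0.01 ± 0.161 and H2-Q7 at 0.04 ± 0.07. Without the 2 dimmest arrays Csprs stood at 0.10 and C130026I21Rik at 0.13.

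Genes of innate sensing spread more. Nlrp3, the sensor of the inflammasome that releases interleukin-1 beta, read 12.16, 11.66 and 10.93 at albiflorin 1, 11.33, 11.68 and 11.14 at albiflorin 10 and 10.74, 11.21 and 11.91 at albiflorin 100. With paeoniflorin it read 10.61, 11.91 and 11.61 at 1, 9.44, 10.45 and 11.32 at 10 and 11.17, 10.61 and 11.83 at 100 µg/ml. Its low value of 9.44 is on paeoniflorin 10 replicate 1, the array with the fewest probes detected, and the groups overlapped at each dose. The pooled difference of 0.43 ± 0.232 (95% interval -0.06 to 0.91, limma adjusted p = 0.472) was 0.05 ± 0.203 without the 3 arrays.

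Tlr7, the endosomal receptor for single-stranded RNA, ran from 13.88 to 15.47 over the albiflorin arrays, with a median of 14.75, and from 13.32 to 15.33 over the paeoniflorin arrays, with a median of 14.26. Albiflorin was higher in 8 of 9 pairs, by 0.43 ± 0.191 pooled (limma adjusted p = 0.437) and by 0.24 ± 0.205 without the 3 arrays. The mean pair difference was 0.61 on scan day 1, 0.70 on day 2 and -0.02 on day 3. Wdfy1, an adaptor of Toll-like receptor signalling, differed by 0.55 ± 0.269 (limma adjusted p = 0.451), and by 0.09 ± 0.153 without the 3 arrays. Its paeoniflorin value of 10.09 on replicate 1 at 10 µg/ml stood below the other 8 paeoniflorin arrays.

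Among transcription factors, Cebpb, a factor of macrophage and acute-phase gene control, has 2 probes. The brighter one differed by 0.07 ± 0.098 (95% interval -0.13 to 0.28), and by -0.00 ± 0.0931 without the 3 arrays. Probe 640455 differed by 0.88 ± 0.374 (95% interval 0.11 to 1.66, limma adjusted p = 0.437), and by 0.26 ± 0.166 without the 3 arrays. At 10 µg/ml probe 640455 read 15.32, 16.00 and 14.56 with albiflorin and 10.48, 14.80 and 15.11 with paeoniflorin, so 1 array held the low value. Jun, a component of AP-1, differed by -0.05 ± 0.083, and Elf4, an ETS factor, by 0.12 ± 0.118. Stat5a, a mediator of cytokine signalling, differed by 0.43 ± 0.224 (limma adjusted p = 0.464), with mean pair differences of 1.03, 0.53 and -0.28 on scan days 1, 2 and 3. The Stat5a difference was 0.06 ± 0.186 without the 3 arrays.

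Bcl2a1b, an anti-apoptotic Bcl-2 relative that LPS had raised by 2.21, differed by -0.07 ± 0.0748 (95% interval -0.22 to 0.09). Ikbip, whose protein binds an IkB kinase subunit, differed by -0.25 ± 0.133, by -0.08 ± 0.133 without the 3 arrays and by -0.10 without the 2 dimmest. Its value of 12.24 on paeoniflorin 10 replicate 1 stood apart from the other paeoniflorin arrays. Tnfsf13, the B cell ligand APRIL, differed by -0.13 ± 0.0908, and by -0.07 without the 2 dimmest arrays. Shbg, the sex hormone-binding globulin gene, was detected on all 3 LPS arrays and on 0 of 3 vehicle arrays. At 100 µg/ml it read 12.08, 11.31 and 11.67 with albiflorin and 12.21, 12.29 and 12.33 with paeoniflorin, groups that did not overlap. Groups of 3 arrays can readily fail to overlap by chance, here and at the single doses below. The share over all probes was not counted for single doses. The widest gap, on replicate 2, lies between a dimmest array and 1 of the 3 arrays. The Shbg difference at 100 µg/ml was -0.59 ± 0.212, and the pooled one -0.27 ± 0.122 (limma adjusted p = 0.437) or -0.15 ± 0.129 without the 3 arrays.

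Among nutrient-sensing genes, Rraga, a Rag GTPase of amino acid sensing, differed by -0.18 ± 0.0826 and Smcr8, an autophagy regulator, by -0.03 ± 0.103 (-0.11 ± 0.112 without the 3 arrays, -0.01 without the 2 dimmest). Eif4ebp1, a repressor of cap-dependent translation, was above the detection limit on 1 array of each isomer, so its difference of -0.71 ± 0.242 lies near the noise. The dehydrogenase genes Aldh3a2, Hsd17b10 and Dhrs7b differed by 0.05 ± 0.102, -0.04 ± 0.0754 and -0.20 ± 0.126. Without the 3 arrays Hsd17b10 stood at -0.00 ± 0.0717 and Dhrs7b at -0.05 ± 0.119, and without the 2 dimmest Aldh3a2, Hsd17b10 and Dhrs7b stood at 0.02, 0.01 and -0.12.

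Genes lowered by LPS include Nanos1, an RNA-binding protein known from germ cells. It read 9.28, 8.37 and 8.92 at albiflorin 100, below detection on all 3 arrays, and 10.05, 10.40 and 10.41 at paeoniflorin 100, where all 3 were detected. The groups did not overlap at that dose. By the bound for undetected spots, which leaves out errors, the reading was 2.7-fold lower with albiflorin. The fit put albiflorin at 0.371 of paeoniflorin at that dose, the same ratio, so the bound added no margin. Nanos1 differed there by -1.43 on the log2 scale (95% interval -2.35 to -0.51, limma adjusted p = 0.672), so the fold can be smaller. Over all doses it was detected on 2 arrays with albiflorin and 7 with paeoniflorin, with a pooled difference of -0.72 ± 0.256 (95% interval -1.25 to -0.19, limma adjusted p = 0.419), lower with albiflorin in 8 of 9 pairs. The difference was -0.74 ± 0.264 without the 3 arrays.

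H2bc18, a histone H2B gene, was found on no albiflorin array and on 3 with paeoniflorin. Its difference of -0.57 ± 0.153 (limma adjusted p = 0.419) thus rests largely on readings below the detection limit. Frat2, which encodes a GSK3-binding protein, was detected on no isomer array, and no fold is given. Trim59 differed by -0.18 ± 0.082, Tbc1d16, a Rab GTPase-activating protein gene, by -0.21 ± 0.138 and C130050O18Rik by -0.34 ± 0.242. These were -0.08 ± 0.0784, -0.11 ± 0.144 and -0.20 ± 0.249 without the 3 arrays, and without the 2 dimmest -0.11, -0.08 and -0.20.

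Over the panel, 14 of 29 probes of 28 genes read higher with albiflorin, 0 were called, and the median difference was -0.0335, against -0.0199 over all tested probes. LPS against vehicle called 22 of these 29. The 95% interval lay within 2-fold for 25 of 29. At an unadjusted p under 0.05 stood 9 of 29 (31%, against 11.2% of all probes), and 2 of 29 without the 3 arrays (6.9%, against 4.23%). Since most of the panel was called for LPS, all probes are not a like background. Of all probes called for LPS, 212 of 1567 higher and 515 of 2207 lower ones stood below that p. Without the 3 arrays these were 39 and 116.

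**Figure D3:**
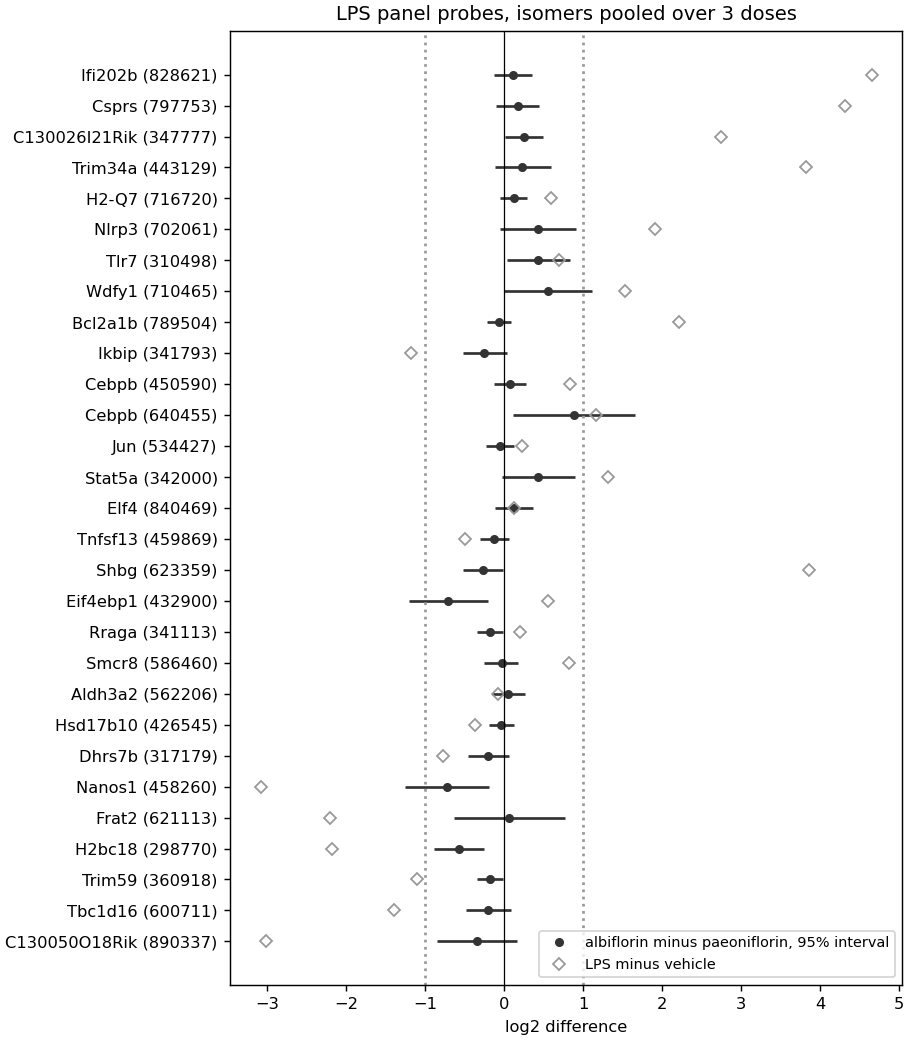
Pooled albiflorin minus paeoniflorin difference of the 29 LPS panel probes (filled points, log2) with 95% intervals, beside LPS minus vehicle (open diamonds). Dotted lines mark 2-fold either way. The isomer intervals lie within 2-fold for 25 of 29 probes.

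**Figure D4:**
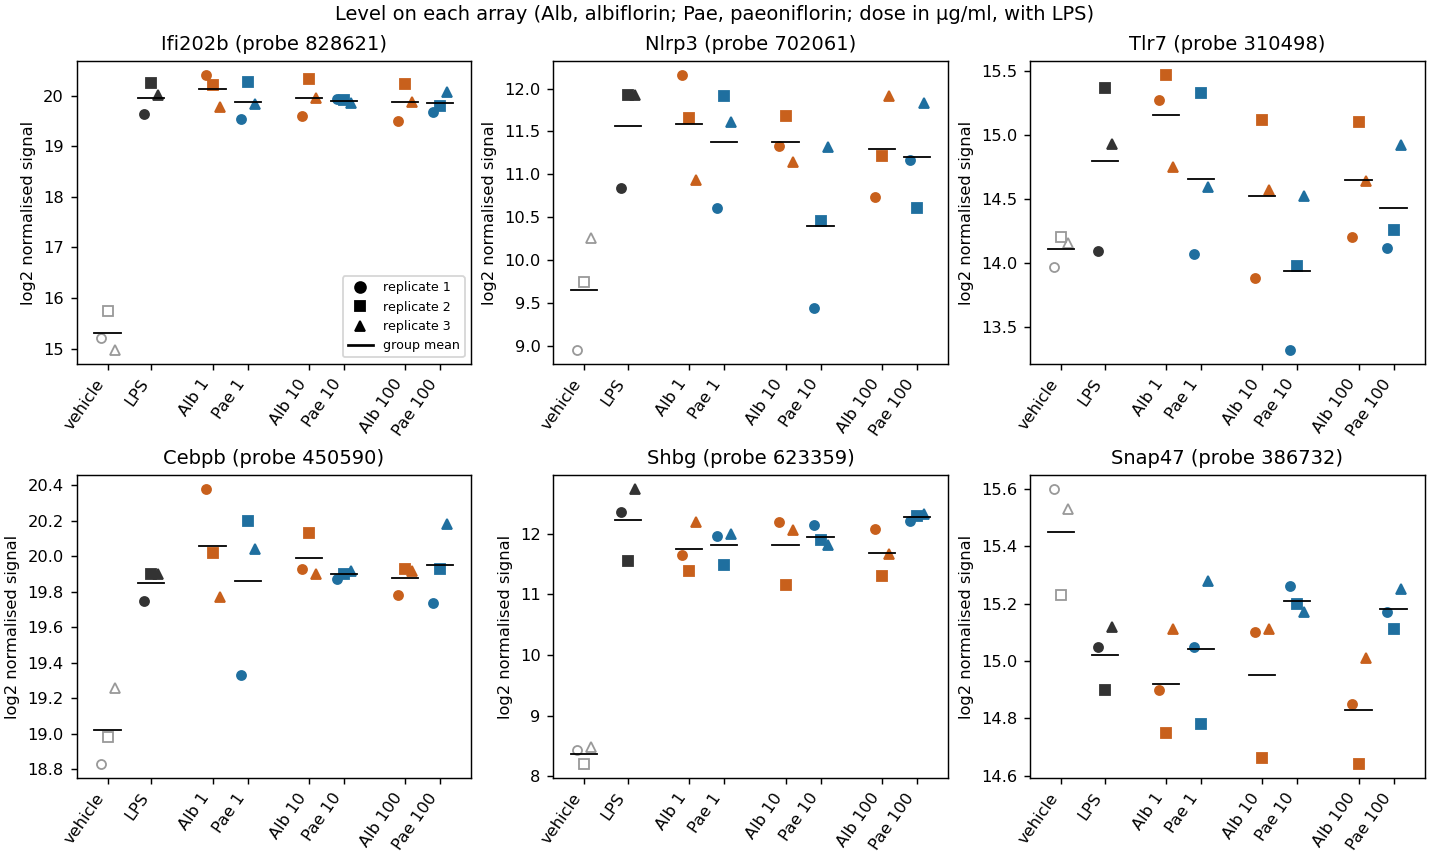
Log2 normalised signal of 6 genes on each array in vehicle, LPS and the isomer groups, with the dose in µg/ml on the axis. Symbols are replicates and bars group means. In Ifi202b all 18 isomer values lie above the vehicle values, and in Snap47 albiflorin lies below paeoniflorin in 9 of 9 pairs by a small amount.

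Among the named genes outside the panel, the smallest pooled p belonged to Snap47, a SNARE protein of vesicle fusion. It read 14.90, 14.75 and 15.11 at albiflorin 1, 15.10, 14.66 and 15.11 at albiflorin 10 and 14.85, 14.64 and 15.01 at albiflorin 100. With paeoniflorin it read 15.05, 14.78 and 15.28 at 1, 15.26, 15.20 and 15.17 at 10 and 15.17, 15.11 and 15.25 at 100 µg/ml. Each albiflorin value lay below its matched partner, in 9 of 9 pairs, while the groups overlapped at 1 µg/ml and not at 10 or 100 µg/ml. The difference was -0.24 ± 0.0684 (95% interval -0.38 to -0.10, limma adjusted p = 0.419), and -0.21 ± 0.0748 without the 3 arrays. In LPS alone Snap47 fell by 0.43 on the log2 scale against vehicle (limma adjusted p = 0.0122). The pooled albiflorin and paeoniflorin groups stood at -0.12 and 0.12 from LPS alone, values that share the LPS arrays.

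Foxn3, a forkhead repressor, differed by -0.37 ± 0.115 (limma adjusted p = 0.419) and by -0.18 ± 0.0943 without the 3 arrays. Gnl2, a nucleolar GTPase of ribosome assembly, differed by -0.14 ± 0.063 and Trmt61a, a tRNA methyltransferase subunit, by -0.24 ± 0.107. On the higher side, Stat5b, a relative of Stat5a, differed by 0.23 ± 0.082 and was higher with albiflorin in 8 of 9 pairs. Dpp9, a dipeptidyl peptidase that restrains an inflammasome, differed by 0.26 ± 0.0924, also in 8 of 9 pairs, and Llgl1, a cell polarity gene, by 0.24 ± 0.106. Without the 3 arrays Stat5b stood at 0.11 ± 0.0658, Dpp9 at 0.21 ± 0.092, Llgl1 at 0.10 ± 0.0989, Gnl2 at -0.08 ± 0.0626 and Trmt61a at -0.11 ± 0.107.

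The 4 unnamed probes with the smallest pooled p under the rule were examined array by array. Probe 433940 read 8.61, 7.53 and 8.65 at albiflorin 1, below detection on all 3, and 10.08, 10.04 and 10.48 at paeoniflorin 1, where all 3 were detected. The groups did not overlap. By the bound, which leaves out errors, the reading was 3.81-fold lower with albiflorin at that dose. The fit put albiflorin at 0.262 of paeoniflorin, the same ratio, so here too the bound added no margin. Probe 433940 differed there by -1.93 on the log2 scale (95% interval -2.61 to -1.25, limma adjusted p = 0.117), so the fold can be smaller. Pooled, it was seen on 3 albiflorin arrays and all 9 with paeoniflorin, with a difference of -1.14 ± 0.189 (limma adjusted p = 0.0855), and -1.05 ± 0.215 without the 3 arrays (limma adjusted p = 0.69). Its level in LPS alone was 10.29, 9.28 and 10.48.

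Probe 416209 differed by -0.72 ± 0.132 pooled (limma adjusted p = 0.187), and by -0.68 ± 0.104 without the 3 arrays (limma adjusted p = 0.0606). It was detected on 4 albiflorin arrays and 7 with paeoniflorin, so part of its readings lie below detection. By dose it differed by -0.96, -1.11 and -0.09 (± 0.229 each) at 1, 10 and 100 µg/ml. Probe 408746 read higher with albiflorin in 9 of 9 pairs, by 0.39 ± 0.0789 (limma adjusted p = 0.388), with mean pair differences of 0.42, 0.32 and 0.43 on scan days 1, 2 and 3. Probe 620359 was seen on 8 albiflorin arrays and 2 with paeoniflorin and differed by 1.41 ± 0.334 (limma adjusted p = 0.419). None of the 4 was called with all arrays at equal weight. With array quality weights 416209 and 433940 were called pooled (limma adjusted p = 0.044 each). At 1 µg/ml these weights called 433940, 416209 and 408746 (limma adjusted p = 0.00205, 0.00598 and 0.0159). Leaving out single arrays brought 3 of them under the threshold. Probe 433940 was called without paeoniflorin 1 replicate 1, paeoniflorin 10 replicate 3 or paeoniflorin 100 replicate 1 (limma adjusted p = 0.0391, 0.0175 and 0.0092). Probe 416209 was called without albiflorin 1 replicate 1 or paeoniflorin 100 replicate 1 (limma adjusted p = 0.0249 and 0.0092), and probe 408746 without paeoniflorin 10 replicate 3 (limma adjusted p = 0.0417).

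At the single doses 0 named genes were called. At 1 µg/ml Plin3, a lipid droplet coat protein, read 13.16, 13.00 and 12.91 with albiflorin and 13.43, 13.18 and 13.38 with paeoniflorin, a difference of -0.31 ± 0.103 (limma adjusted p = 1). At 10 µg/ml its difference had the other sign, 0.34 ± 0.103 (limma adjusted p = 0.434), with 13.65, 13.42 and 13.27 for albiflorin and 13.19, 13.08 and 13.04 for paeoniflorin. At 100 µg/ml it was -0.10 ± 0.103. The groups did not overlap at 1 and 10 µg/ml, in opposite directions.

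Also at 1 µg/ml, Psme3, a proteasome activator, differed by -0.39 ± 0.151 and Tcp10b by -0.89 ± 0.469, while Lst1, H2bc13 and Lgals1, the gene of galectin-1, differed by 0.28 ± 0.168, 0.27 ± 0.165 and 0.21 ± 0.134 (limma adjusted p = 1 for each). Lst1 and Lgals1 stood at 0.15 ± 0.17 and 0.13 ± 0.12 without the 3 arrays. Tcp10b had the other sign at 10 and 100 µg/ml, 0.53 ± 0.469 and 0.83 ± 0.469. Psme3 stood there at 0.02 ± 0.151 and -0.13 ± 0.151. At 10 µg/ml Cd99, a surface glycoprotein gene, differed by 0.91 ± 0.33, and by 0.15 ± 0.122 without the 3 arrays. Trim59 and Ikbip differed there by -0.39 ± 0.142 and -0.50 ± 0.231, and by -0.23 ± 0.137 and -0.30 ± 0.232 without the 3 arrays. Without the 2 dimmest Ikbip stood at -0.19. At 100 µg/ml Rnf112, Krtap3-3 and Fmr1nb differed by 0.54 ± 0.202, 0.45 ± 0.177 and 0.58 ± 0.267, and Foxn3 by -0.60 ± 0.199. Without the 2 dimmest arrays Rnf112 stood at 0.32.

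The LPS response as a whole was summarised by a score, the mean log2 level of the 1567 probes called higher after LPS minus that of the 2207 called lower. It averaged 0.80 ± 0.283 with albiflorin and 0.58 ± 0.235 with paeoniflorin (SD, n = 9 each), against 0.85 ± 0.278 in LPS alone and -1.80 ± 0.137 in vehicle (SD, n = 3 each). By dose it averaged 0.93, 0.70 and 0.77 at albiflorin 1, 10 and 100 and 0.75, 0.45 and 0.55 at paeoniflorin 1, 10 and 100. LPS alone stood 2.65 above vehicle, on arrays that also served to choose the probes of the score. That gap is therefore no test, and the place of the isomers beside LPS alone can be biased. LPS alone scored 0.55, 1.10 and 0.89 on replicates 1, 2 and 3. Each paeoniflorin array scored below the LPS array of its day, and so did most albiflorin arrays. Albiflorin 1 replicate 1, an array most like another scan day, stood clearly above at 1.06. Albiflorin 10 and 100 on replicate 2, the dimmest arrays, scored 1.10 and 1.11, beside 1.10 in LPS alone.

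Pair by pair, albiflorin and paeoniflorin scored 1.06 and 0.53, 1.07 and 1.06, and 0.64 and 0.65 for replicates 1, 2 and 3 at 1 µg/ml. At 10 µg/ml they scored 0.42 and 0.19, 1.10 and 0.47, and 0.60 and 0.69. At 100 µg/ml they scored 0.49 and 0.49, 1.11 and 0.50, and 0.72 and 0.66. The 3 widest gaps, 0.53, 0.63 and 0.61, lie in pairs that hold albiflorin 1 replicate 1, paeoniflorin 10 replicate 2 or paeoniflorin 100 replicate 2. The first and the last of these are arrays most like another scan day. The gaps of 0.63 and 0.61 also hold albiflorin 10 replicate 2 and albiflorin 100 replicate 2, the 2 dimmest arrays. The other 6 pairs differed by -0.10 to 0.23.

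The mean difference was 0.217 ± 0.292 (SD, n = 9 pairs, higher in 7 of 9), which did not pass a 2-sided exact permutation test that flips signs within pairs (p = 0.0781, where the smallest possible is 0.00391). At the single doses the means were 0.177, 0.254 and 0.222, with exact p of 0.75, 0.5 and 0.25 (0.75 each after Benjamini-Hochberg adjustment over the 3), where 3 pairs cannot go below 0.25. By scan day they were 0.255, 0.415 and -0.0176. The test treats the 9 pairs as independent, though they are 3 doses on each of 3 scan days. Its p, also with arrays left out, can therefore be too small. The mean over the 6 pairs without the 3 arrays was 0.0986 (exact permutation p = 0.625). Without the 2 dimmest arrays, with the LPS probes called again, it was 0.0994 (exact permutation p = 0.297). Leaving out albiflorin 10 replicate 3 or paeoniflorin 10 replicate 3, which removes the pair with the lowest difference, gave 0.259 and 0.261 with exact permutation p of 0.0234 and 0.0312.

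**Figure D5:**
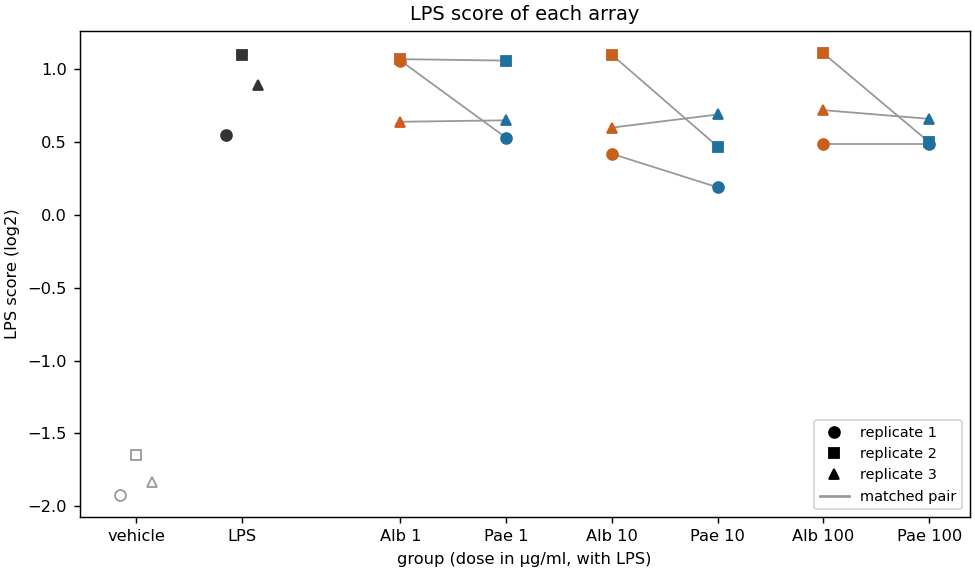
LPS score of each array (log2) in vehicle, LPS and the isomer groups, with lines joining matched albiflorin and paeoniflorin arrays. Symbols are replicates, which are scan days. The pairs of replicate 3 differ by -0.10 to 0.06.

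Counts over the probes of the score restate it and add no test. Of the 1567 probes higher after LPS, 1006 read higher with albiflorin, with a median of 0.0679, and of the 2207 probes lower after LPS 458 did, with a median of -0.126, while 9000 of all 19438 did, with a median of -0.0199. On scan day 1 the counts were 903 of 1567, 624 of 2207 and 9507 of 19438, with medians of 0.0598, -0.144 and -0.0106. On day 2 they were 1053, 384 and 8562, with medians of 0.127, -0.23 and -0.0526. On day 3 they were 722 of 1567, 1116 of 2206 and 9285 of 19437, with medians of -0.0148, 0.00186 and -0.00965. They were 972, 569 and 8309 without the 3 arrays, with medians of 0.0377, -0.0678 and -0.0263. The part of the arrays that stand apart in these counts was not tested beyond leaving them out.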

How the data were processed

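Digoxigenin-labelled RNA was read on one-colour oligonucleotide arrays, per the labels' protocols. The deposited scanner tables give, per the file headers, an intensity for each spot and its standard deviation, together with a score of signal against noise and a flag. The scanner software is not given in the sources used here. The authors also deposited log2 values, whose scale matches log2 intensity on vehicle replicate 1 (difference at most 2.24e-06) and whose normalisation of the other arrays is unknown. They were used as an alternative only.

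The 303 control spots were left out, spots with a flag above 5000 were set missing, and intensities were quantile normalised, floored at the 5th percentile (165.7) and taken to log2. Probes with a signal over noise of at least 3 on 3 or more arrays were tested, 19438 in all, of which 1785 had a missing value. All 33 arrays entered one limma 3.58.1 fit (R 4.3.3) of 11 group means with the replicate number as a block, with 2-sided tests adjusted by Benjamini-Hochberg over all probes. The fit was run on simulated arrays with independent noise, without scan-day effects, missing values or arrays that stand apart. That run therefore does not show how the fit behaves under those conditions. The number of arrays limits the precision. Replicate numbers pair the arrays because each marks a scan day, per the file headers. Deviations from the group means correlated by -0.34 to 0.54 within the 9 isomer pairs.

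Where a probe was undetected on every array of a group, its fold is a bound. The mean of the group with signal is divided by a mean in which each array of the undetected group counts at its smallest detected signal, or at the probe's reading if that is larger. Errors of both means are left out of it, so the true fold can be smaller. Names come from a RefSeq table of mouse genes by accession (311 of 517 RefSeq accessions, 0 of 27930 Celera identifiers). The named genes were, pooled, the 5 each way with the smallest p that were detected on at least 6 of 9 arrays of the higher compound, at each dose 3 each way detected on all 3 arrays, all panel genes, and up to 2 unnamed probes each way. The compounds, lists and panel were chosen with earlier results of these data known. Of 10 gene lists, 7 had tested members and 0 of their probes were called.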

Additional observations from a re-analysis of the deposited data

Results flagged for a closer look

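The 9 arrays of each isomer were checked for a value far from the other 8, at 40 probes and for the LPS score. One set with a missing value was left out, which leaves 81. Chance marks about 5% of independent sets, and 16 were marked. These sets share arrays, and their probes were chosen by a small p or from the panel, so the 5% is no yardstick for them. On paeoniflorin 10 replicate 1, the array with the fewest probes detected, the values that stood apart were 12.15 for Stat5b, 14.07 for Dpp9, 10.48 for Cebpb probe 640455, 13.48 for Llgl1, 13.43 for probe 408746, 12.60 for Trim34a, 18.63 for H2-Q7, 10.09 for Wdfy1, 12.24 for Ikbip, 12.66 for Stat5a and 15.71 for Trim59. On paeoniflorin 1 replicate 2 they were 14.78 for Snap47, 14.57 for Trmt61a, 14.71 for Tbc1d16 and 11.83 for C130050O18Rik. On paeoniflorin 10 replicate 2 it was 16.42 for Hsd17b10. None of the 16 was on an albiflorin array.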

How the results depend on the processing

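Under most alternatives the isomer comparisons again had 0 called probes. Without a detection filter 1 probe was called at 1 µg/ml, 1 pooled, 1 by the slope difference and 1 by the F test, the same unnamed probe 632996 in the first 3. Array quality weights gave 25 at 1 µg/ml, 2 pooled (416209 and 433940) and 2 by the F test. Without the 3 arrays that stand apart, chosen after seeing the data as were the scan order covariate and the removal of 2 arrays, 1 was called at 1 µg/ml (416209) and 1 by the F test, and without the 2 arrays most like another day 1 by the F test. The cause was not tested. Leaving out each array in turn gave 0 to 1 calls at 1, 0 to 7 at 10 and 0 to 3 at 100 µg/ml, 0 to 5 pooled, 0 to 3 for the slope difference, 0 to 3 for the F test and 0 to 0 for the panel. Pooled calls appeared without albiflorin 1 replicate 1 (1), paeoniflorin 1 replicate 1 (2), paeoniflorin 10 replicates 2 (1) and 3 (5) and paeoniflorin 100 replicates 1 and 3 (3 each). The LPS score difference ran from 0.161 to 0.261 over those (exact p 0.0234 to 0.172) and from 0.0823 to 0.318 over 15 other settings (exact p 0.0625 to 0.688), the lowest without the 3 arrays and with the LPS probes called again. With no replicate block 0 probes were called pooled, and the unadjusted pooled count was 1045 against 2177 with the block. It was 1351 with scan order as a covariate, 1287 with the 18 isomer arrays alone and 1023 without the 2 dimmest isomer arrays. Median scaling gave a pooled split of 205 higher and 2965 lower, against 608 and 1569, and 1642 of 1907 lower at 10 µg/ml, against 906 of 2225, where the authors' values gave 1074 of 2141. It set the median of all probes at -0.112 at 10 and -0.164 at 100 µg/ml, against -0.0154 and -0.0409. Under it 12 of 29 panel probes read higher, against 14. Of 70 named differences, 9 changed sign under some alternative, none of them called with all arrays. The array batch as a block and the score within one batch were not run, since the headers give no array batch.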
